A study of Mus musculus with 27 samples.

Results

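RNA of day 5 cytotoxic T lymphocytes (CTLs) from lin28Tg mice was compared with that of day 5 CTLs from let-7Tg mice, all genes of the deposited day 5 table included. The 6 samples, 3 biological replicates of each genotype, were chosen by their genotype and stage labels from the 27 samples of the series. The series holds naive CD8 T cells, cells activated for 12 h and day 5 CTLs from WT, lin28Tg and let-7Tg mice, with 3 samples for each genotype and stage. All mice carried the P14 T cell receptor, which recognizes the gp33 peptide of LCMV, on a Rag2-/- C57BL/6 background. Lin28Tg mice (genotype Lin28bTg) carry a Lin28b transgene whose promoter is not given in the sources used here. In let-7Tg mice (genotype Let-7Tg) a let-7g transgene, placed in the Col1a1 locus, is switched on by doxycycline. Young adult mice of both sexes were used for in vitro CTLs, and doxycycline was given to control mice as well. For CTLs, lymphocytes received anti-CD3 antibody at 2 μg/mL together with irradiated splenocytes as feeders. After 48 h the culture went on for 3 more days with IL-2 at 100 U/mL, and doxycycline at 2 μg/mL was present in all 3 genotypes.

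Let-7 miRNAs are a family of small RNAs that share 1 seed sequence. Paired with a matching site, usually in the 3′ UTR of an mRNA, they lower the stability and translation of that mRNA. Lin28 proteins bind let-7 precursors and block their maturation. In CD8 T cells let-7 levels are high in naive cells and fall after antigen receptor stimulation, and let-7 restrains the acquisition of cytotoxic function. The comparison asks how the CTL transcriptome differs between cells made to lack let-7 and cells made to keep it. Mature miRNAs were not measured, so let-7 itself has no value here.

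The transgenes could be checked in the RNA. Lin28b (ENSMUSG00000063804, GRCm38 chr10:45376620-45486395) was at 21.9, 14 and 22.4 FPKM in the 3 lin28Tg samples. FPKM are fragments counted on a gene, divided by its length and by the total of the library. In the let-7Tg samples it rested on 1, 3 and 1 reads against 1593 to 2685 reads in lin28Tg CTLs (adjusted p = 2.49e-06 by limma). Lin28b had no read in WT CTLs, so it passed the filter on reads only through its lin28Tg samples. Its adjusted p is therefore not a check apart from these reads. Col1a1, the collagen gene that hosts the let-7g transgene (ENSMUSG00000001506, chr11:94936224-94953042), was at 13.2, 17.8 and 9.06 FPKM in let-7Tg CTLs and at 0.175, 0.853 and 1.09 FPKM in lin28Tg CTLs (adjusted p = 3.84e-04). Neither gene overlapped between the groups. Of the 35 tested genes within 1 Mb of Col1a1, 8 were higher and 1 was lower in lin28Tg CTLs. Over all 13030 tested genes 10.8% were higher and 10.7% lower. The calls within 1 Mb thus leaned to higher, on few genes and without a test. Within 10 Mb 34 of 257 genes were higher and 27 lower. In both directions together 25.7% and 23.7% were called, near the 21.6% over all genes. The Col1a1 level itself is not a measure of let-7g.

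Sequences of the family members show why all of them are read together, since the seed, bases 2 to 8 and written in capitals, is the same in each. They are mature mouse sequences from RefSeq on GRCm38.p6. The endogenous gene of let-7g, the member carried by the transgene, places it at chr9:106178846-106178867 on the plus strand, in an intron of Wdr82.
let-7g-5p: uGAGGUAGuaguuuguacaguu
let-7a-5p: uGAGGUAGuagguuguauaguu
let-7d-5p: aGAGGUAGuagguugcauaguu
miR-98-5p: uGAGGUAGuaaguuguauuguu
A site was counted in the 3′ UTR of GENCODE M21 transcripts as an 8mer (CTACCTCA), a 7mer-m8 (CTACCTC) or a 7mer-A1 (TACCTCA), read on the strand of the transcript. Each 8mer holds both 7mers and was counted as 8mer.

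Genes higher in lin28Tg CTLs with the smallest adjusted p among those with an 8mer included Cdc34, Arid3a, Igf2r, Qars and Zc3hav1l. The windows below are 30 bases of their 3′ UTR on GRCm38, written along the transcript, with the 8mer in capitals. The Cdc34 window is chr10:79688116-79688145 on the plus strand, that of Arid3a chr10:79953899-79953928 on the plus strand, that of Igf2r chr17:12683025-12683054 on the minus strand and that of Qars chr9:108515853-108515882 on the plus strand. Zc3hav1l has 2 windows, chr6:38292872-38292901 and chr6:38292188-38292217, both on the minus strand.
Cdc34: caggcgacagaCTACCTCAccgaggttcca
Arid3a: caagtttctttCTACCTCAggtcttttgat
Igf2r: tgctccgtgccCTACCTCAtctctgtagtt
Qars: tacatgtggccCTACCTCAtcctggaggct
Zc3hav1l, first site: aactgtaatacCTACCTCAcaactaactga
Zc3hav1l, second site: ctcggaggtttCTACCTCAccccacccctc
Cdc34, a ubiquitin-conjugating enzyme of the cell cycle (ENSMUSG00000020307, 3′ UTR of 339 bases), was at 124, 172 and 150 FPKM in lin28Tg and at 46.6, 49 and 66.5 FPKM in let-7Tg CTLs (2.96-fold, or 1.56 on the log2 scale with an SE of 0.18, adjusted p = 6.90e-04). Arid3a, a DNA-binding factor, was at 14.8, 16.4 and 15.3 against 4.26, 4.01 and 3.39 FPKM (adjusted p = 2.08e-04). In both genes every lin28Tg sample lay far above every let-7Tg sample. Zc3hav1l, the gene with 2 8mers, was at 9.5, 10.3 and 10.7 against 3.05, 2.94 and 3.89 FPKM (3.03-fold, adjusted p = 2.77e-04). Igf2r, a receptor that clears IGF2, was at 148, 165 and 162 against 103, 114 and 98.3 FPKM, and Qars, the glutamine tRNA synthetase, at 164, 140 and 151 against 107, 99.4 and 96.5 FPKM. Styk1 and Gas7 were also picked among genes called higher with an 8mer, at 5.08-fold and 4.52-fold higher levels. Lin28b holds an 8mer too, but its level here includes the transgene. Genes named below for other reasons hold an 8mer in both directions. Fasl and Igf2bp3 were higher in lin28Tg CTLs, and Ccr7, Fas and Igf1r were lower.

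Over all genes with a let-7 site the difference was small. Among 11634 tested genes with a 3′ UTR, 1772 held a site of any class, and 279 of them were called higher and 169 lower in lin28Tg CTLs (15.7% and 9.54%). Of the 9862 genes with no site, 10.9% were higher and 11.3% lower. Of the 385 genes with an 8mer, 65 were called higher and 36 lower (16.9% and 9.35%). The median log2 fold change was 0.00 with no site, 0.08 with any site and 0.13 for the 385 genes with an 8mer. Without scaling between samples the medians were -0.10, -0.02 and 0.02, so that only the distance between the groups held and the direction of the any-site group turned. The 15 genes with 2 or more 8mers had a median of 0.45, with 7 called higher and 0 lower (0.35 without scaling). The 7 were Acer3, Bach1, Fam83g, Fgd6, Hif1an, Mettl6 and Zc3hav1l, named after their values were seen. Hif1an, a hydroxylase that inhibits HIF, was at 29.3, 23 and 25.8 FPKM in lin28Tg and at 19.2, 16.2 and 18.6 FPKM in let-7Tg CTLs (adjusted p = 0.00415, with a log2 difference of 0.62). Sites are more frequent in long 3′ UTRs, the median length being 2233 bases with a site and 793 bases without. Within 4 bins of 3′ UTR length the 8mer median lay between 0.10 and 0.20, and the no-site median between -0.02 and 0.02. A site match is a description of the letters and not a measured binding event.

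**Figure D1:**
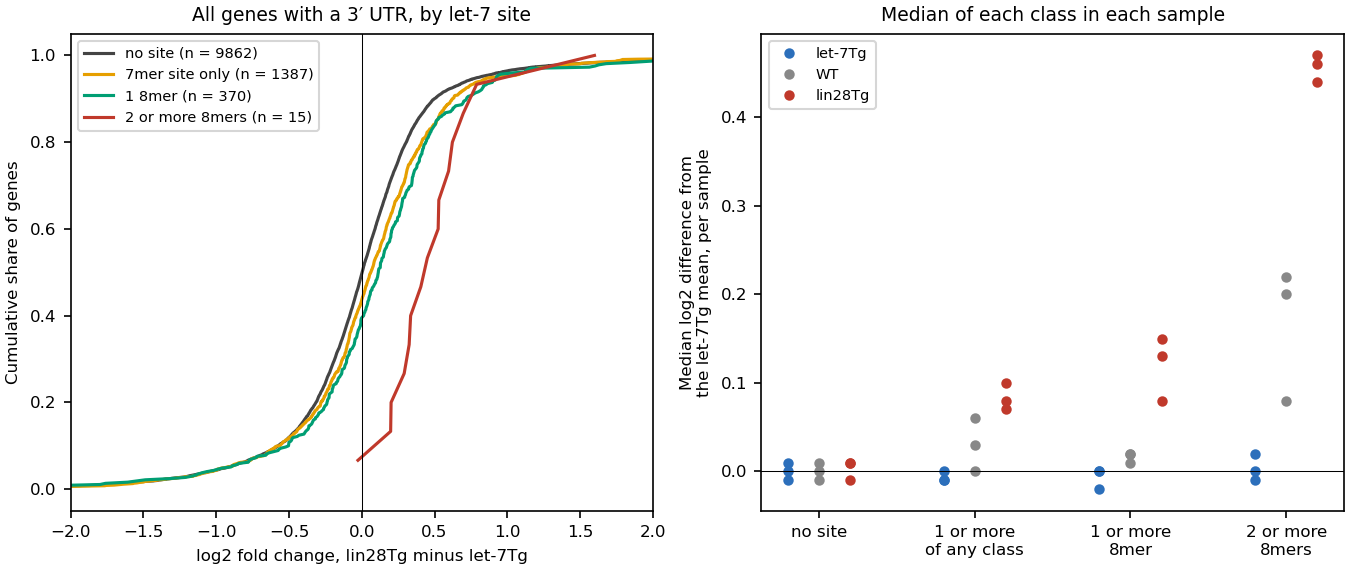
Left, the cumulative share of genes (y axis) by log2 fold change of lin28Tg against let-7Tg CTLs (x axis), for genes grouped by let-7 site in the 3′ UTR. Right, for each sample the median log2 difference from the let-7Tg mean (y axis) over the genes of each group, with 1 point for each sample. The lin28Tg points reach 0.44 to 0.47 for genes with 2 or more 8mers, WT points 0.08 to 0.22, and points of genes with no site lie between -0.01 and 0.01. Without scaling the median of genes with any site is -0.02.

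Beyond single sites, 13030 genes were tested and 2812 were called at a Benjamini-Hochberg adjusted p under 0.05 in limma (21.6%), 1413 higher in lin28Tg (10.8%) and 1399 lower (10.7%). At an unadjusted p under 0.05 there were 4589. Counts for the gene lists below are to be read beside the shares of 21.6%, 10.8% and 10.7%. The split of the calls depended on the scaling between samples. Without it 35% in place of 50.2% of the called genes were higher. A block for the replicate number raised the count to 4732, with 2423 higher and 2309 lower. The labels do not say that samples of the same number belong together. Without the block, the count fell to 1658 or 1750 when let-7Tg replicate 1 or 2 was left out. It fell to 1856 or 1795 in the absence of lin28Tg replicate 2 or 3. The values of the groups did not overlap in 42.3% of all tested genes and in 2802 of the 2812 called genes. The typical called gene changed by 0.75 on the log2 scale, and 958 changed by at least 1. Library correlations of log2 values were 0.945 to 0.966 between lin28Tg and let-7Tg samples and 0.982 to 0.991 between replicates. The samples held 19256940 to 22647839 counted reads. All fold changes are on the log2(FPKM + 0.5) scale, which understates the change of low genes. P-values set each difference against the spread between biological replicates, with the WT samples included in that spread.

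Most tested cytolytic genes were higher in lin28Tg CTLs. Of 26 tested genes of cytotoxic granules 16 were higher and 0 lower (61.5% called), with a median log2 fold change of 1.06 against 0.00 over all genes. Leaving out 1 sample at a time left 15 to 17 called. Prf1, which encodes perforin, the pore-forming protein of the granule, was at 171, 307 and 254 FPKM in lin28Tg CTLs and 13.3, 17.2 and 11.4 FPKM in let-7Tg CTLs (17.9-fold or 4.17 ± 0.26 on the log2 scale ± SE, adjusted p = 1.17e-04). Gzmb, granzyme B, a protease that starts apoptosis in target cells, was at 4373, 8237 and 5954 against 1269, 1704 and 1449 FPKM (4.41-fold, adjusted p = 3.51e-04). Neither gene overlapped, and the highest let-7Tg value of Gzmb lay below the lowest lin28Tg value.

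Other granzymes differed by more and varied more. Gzma was at 4315, 6046 and 4371 FPKM in lin28Tg CTLs and at 78.2, 109 and 11.8 FPKM in let-7Tg CTLs (110-fold, adjusted p = 0.00144). Gzmc was at 743, 3018 and 1297 against 10.3, 19.7 and 5.69 FPKM (adjusted p = 0.00129). Gzmd, Gzme, Gzmf and Gzmg lay at most at 1.15 FPKM in let-7Tg CTLs and between 1.77 and 862 FPKM in lin28Tg CTLs. In all 4 lin28Tg replicate 1 was the lowest of its group, with 22.2 FPKM for Gzmd against 862 and 351 FPKM in the others. These 4 granzymes are close copies on chromosome 14, so that reads shared among them make each single value uncertain. Their calls (adjusted p = 0.00523, 0.00348, 0.00216 and 0.019 in limma) were lost in a limma-voom fit on recovered reads (0.105, 0.0903, 0.0693 and 0.282). Gzmg also lost its call without lin28Tg replicate 2 or 3 (0.0564 and 0.071) or let-7Tg replicate 1 or 2 (0.0634 and 0.0529). Gzmk, with 5, 2 and 0 reads in the let-7Tg samples and 411, 119 and 549 in the lin28Tg samples, was also called higher (adjusted p = 3.27e-04). Rab27a and Sytl2, which bring granules to the membrane, were 2.19-fold and 2.79-fold higher (adjusted p = 2.08e-04 and 2.63e-04). Fasl, the death ligand, was at 36.9, 39.1 and 45.5 against 11, 20.7 and 11.3 FPKM.

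**Figure D2:**
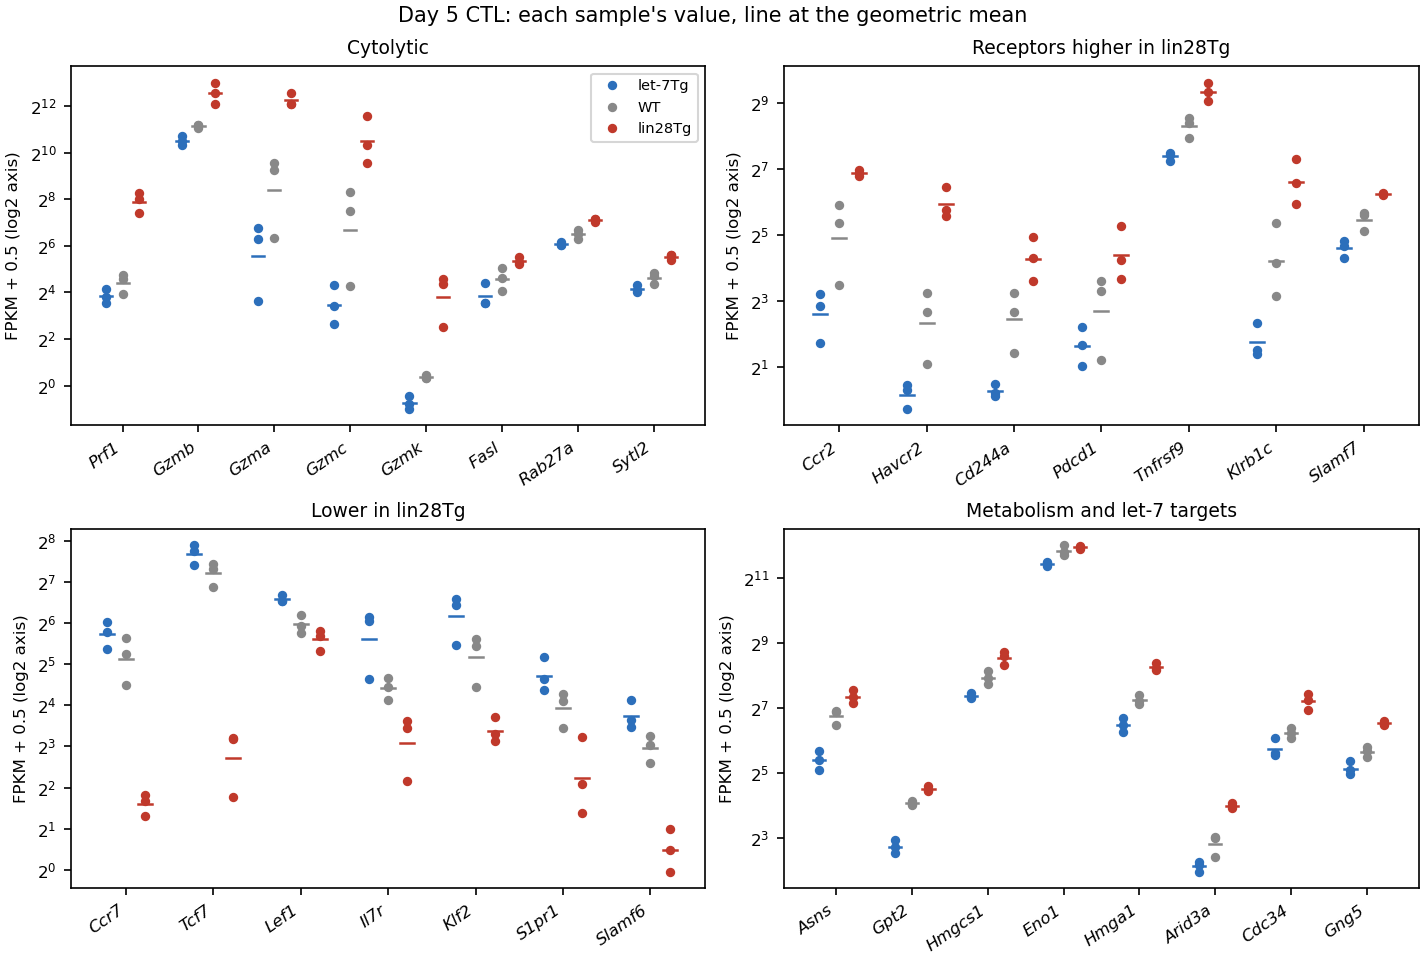
Each point is the value of 1 sample as FPKM + 0.5 on a log2 axis (y axis) for named genes (x axis), with lin28Tg, let-7Tg and WT CTLs in different colours and a line at the geometric mean. In the cytolytic panel the lin28Tg samples of Prf1 sit at 171 to 307 FPKM and the let-7Tg samples at 11.4 to 17.2 FPKM.

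Cytokines moved in both directions. Of 16 tested effector cytokine genes 5 were higher and 3 lower (50% called against 21.6% of all genes). The calls fell to 5 without WT replicate 1, let-7Tg replicate 1 or let-7Tg replicate 2. Ifng, interferon gamma, was at 3.74, 15.7 and 4.59 FPKM in lin28Tg and at 0.0423, 0.658 and 0.629 FPKM in let-7Tg CTLs (8.3-fold, adjusted p = 0.00295). Il10 was at 36.7, 81.9 and 19.7 against 3, 6.98 and 1.78 FPKM (adjusted p = 0.00301), and Wnt10b, a Wnt ligand, at 16, 19.7 and 30.5 against 0.508, 0.555 and 0.185 FPKM (25.6-fold). Lower genes included Lif, with 1.54, 4.8 and 1.07 against 22, 28.5 and 10.5 FPKM, and Ltb, lymphotoxin beta, with 97.7, 97.6 and 81.1 against 236, 251 and 241 FPKM (adjusted p = 2.57e-04). Tnf was at 10.5, 44 and 13.2 FPKM against 15.4, 31.2 and 12.7 FPKM, the groups overlapped, and it was not called (log2 fold change 0.11, SE 0.59, adjusted p = 0.917). Of the 3 chemokine genes tested Ccl3 and Ccl4 were called, with 3.81-fold and 5.23-fold higher values at low levels. Ccl4 was called in every fit without 1 sample. Ccl3, at 1.02, 3.28 and 1.53 against 0.267, 0.115 and 0 FPKM, passed the filter on reads only through its lin28Tg samples and was not tested when 1 of them was left out. Under the stricter filter neither gene was tested.

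Receptors that direct T cells to tissue changed in both directions. Of 32 tested genes of chemokine receptors and homing 9 were higher and 11 lower (62.5% called against 21.6% of all genes). Ccr7, which leads cells to lymph nodes, was at 3.02, 2.69 and 1.98 FPKM in lin28Tg and at 54.7, 40.9 and 65.1 FPKM in let-7Tg CTLs (16.4-fold lower, or -4.03 ± 0.30 on the log2 scale ± SE, adjusted p = 1.45e-04). S1pr1, the exit receptor, was at 8.81, 2.08 and 3.73 against 35.7, 20.1 and 24.4 FPKM. Cxcr3 and Ccr4 were also lower, the latter at 0.671, 1.45 and 0.808 against 12.2, 14.1 and 12.1 FPKM. Ccr2, a receptor for inflammatory chemokines, was at 111, 116 and 124 FPKM in lin28Tg and at 6.72, 8.71 and 2.78 FPKM in let-7Tg CTLs (21-fold, adjusted p = 0.00108). Itgal, the integrin chain of LFA-1, was 1.52-fold higher. No sample of these named receptors crossed into the range of the other genotype. The same held for 42.3% of all tested genes and for 2802 of the 2812 called genes.

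Among inhibitory receptors 7 of 21 tested genes were higher and 6 lower (61.9% called against 21.6% of all genes). Havcr2, which encodes TIM-3, was at 47.4, 87 and 53.8 FPKM in lin28Tg and at 0.739, 0.858 and 0.327 FPKM in let-7Tg CTLs (58-fold, or 5.86 ± 0.48 on the log2 scale, adjusted p = 2.07e-04). Cd244a, encoding 2B4, was at 11.6, 29.8 and 19.1 against 0.896, 0.646 and 0.592 FPKM (17-fold). Pdcd1, encoding PD-1, was at 12.2, 38 and 18.5 against 2.67, 4.07 and 1.52 FPKM (adjusted p = 0.0119). The lower genes included Cd5, a brake on antigen receptor signaling, with 10.8, 4.52 and 7.49 against 35.9, 42.7 and 32.5 FPKM, and Pecam1 and Cd200. Lag3 was at 137, 117 and 90.8 against 252, 197 and 99.5 FPKM and was not called (adjusted p = 0.392), but it was with the replicate block (adjusted p = 0.0311).

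Costimulatory and SLAM receptors were lower more often than higher. Of 27 tested genes 12 were lower and 4 higher (59.3% called against 21.6% of all genes, median -0.49). Slamf6, a receptor of less differentiated T cells, was at 1.49, 0.466 and 0.885 FPKM in lin28Tg and at 17, 11.9 and 10.7 FPKM in let-7Tg CTLs (adjusted p = 2.56e-04). Cd27 was at 69.5, 35.6 and 64.4 against 203, 183 and 166 FPKM, and Tnfrsf4, encoding OX40, at 15.8, 10.7 and 10.1 against 67, 69.8 and 48.9 FPKM. Cd28 was lower at the threshold (adjusted p = 0.0419) with overlapping values, and its call was lost without WT replicate 1 or 2 (0.0574 and 0.0594), lin28Tg replicate 2 or 3 (0.133 and 0.135) or let-7Tg replicate 1 or 2 (0.147 and 0.139). The higher genes were led by Tnfrsf9, encoding 4-1BB, with 533, 780 and 642 against 172, 177 and 150 FPKM (4.18-fold, adjusted p = 2.08e-04), and Slamf7, with 73.4, 77 and 74.8 against 27.7, 24.8 and 19.2 FPKM.

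Most tested genes of NK cell receptors were higher. Of 19 tested members 11 were higher and 0 lower (median 1.16), 7 of them without let-7Tg replicate 1. Klrb1c, encoding NK1.1, was at 93.9, 60.8 and 158 FPKM in lin28Tg and at 2.11, 4.54 and 2.34 FPKM in let-7Tg CTLs (31.1-fold, adjusted p = 5.17e-04). Fcer1g, an adaptor of activating receptors, was at 22.1, 102 and 69.8 against 1.38, 1.53 and 1.37 FPKM (30.2-fold). Klra5 and Il18rap followed at 16.5-fold and 2.26-fold. Markers of NK cells moved with these genes. Summed over 5 markers they reached 138 to 300 FPKM in lin28Tg and 18.1 to 47 FPKM in let-7Tg CTLs, from Klrb1c and Eomes, while Ncr1 stayed at or below 0.0896 FPKM and Klra4 had no read in the 6 samples. CD8 T cell markers summed to 3097 to 3416 FPKM in lin28Tg and 3480 to 3698 FPKM in let-7Tg CTLs. In bulk RNA fewer cells of a type and less RNA per cell cannot be told apart.

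Transcription factors of effector cells moved in both directions. Of 37 tested 11 were higher and 5 lower (43.2% called against 21.6% of all genes). Without let-7Tg replicate 1 the counts were 7 higher and 3 lower. Id2, an inhibitor of E proteins that favours effector cells, was at 334, 513 and 364 FPKM in lin28Tg and 95.3, 141 and 82.6 FPKM in let-7Tg CTLs (adjusted p = 0.00196). Hopx was at 69.6, 77.3 and 72.5 against 30.2, 30.1 and 26 FPKM (adjusted p = 1.17e-04), and Eomes at 67.7, 77.5 and 142 against 15.9, 20.9 and 44.6 FPKM (adjusted p = 0.00766). Irf8 and Ikzf2 were higher, Irf4, Nfatc1 and Tox lower. Tbx21, encoding T-bet, was at 19.8, 21.3 and 19.1 against 32.3, 28.1 and 35 FPKM without overlap and was not called (adjusted p = 0.0616), but it was with the replicate block (adjusted p = 0.0275), without scaling (0.0231), with only the 6 samples compared (0.0153) and without WT replicate 2 or 3 (0.0249 and 0.023). Prdm1 and Zeb2 were not called, with log2 fold changes of 0.56 and -0.17 and adjusted p of 0.186 and 0.629.

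Of 36 tested factors of memory and quiescence 16 were called lower and 3 higher (52.8% against 21.6% of all genes, median -0.35). Leaving out 1 sample left 15 to 19 called. Tcf7, encoding TCF-1, a factor of stem-like T cells, was at 8.6, 2.93 and 8.79 FPKM in lin28Tg and at 237, 215 and 169 FPKM in let-7Tg CTLs (29-fold lower, or -4.86 ± 0.35, adjusted p = 1.44e-04). Lef1 was at 51.3, 39.9 and 55.6 against 103, 93.2 and 91.9 FPKM (adjusted p = 0.00382). Id3, the counterpart of Id2, was at 4.49, 8.01 and 9.44 against 26.7, 33.5 and 39.6 FPKM, and Klf2, which drives S1pr1, at 12.6, 9.41 and 8.29 against 86.7, 43.8 and 95.4 FPKM. Bach2 and Zbtb20 were 2.39-fold and 3.95-fold lower. Foxo1 was not called (16.8, 12.1 and 14.4 against 19.3, 16.9 and 15.7 FPKM, adjusted p = 0.417).

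Genes of antigen receptor signaling moved both ways, 14 higher and 10 lower of 56 (42.9% called against 21.6% of all genes). Cd247, encoding the CD3 zeta chain, was at 310, 261 and 305 FPKM in lin28Tg and 101, 93.5 and 89.8 FPKM in let-7Tg CTLs (3.3-fold, SE 0.08 on the log2 scale, adjusted p = 2.42e-05). Plcg2 and Dusp4, a lipase and a MAP kinase phosphatase, were 5.39-fold and 5.59-fold higher. Dgka, which removes the second messenger diacylglycerol, was at 56.5, 42.4 and 46 against 178, 151 and 108 FPKM, and Ptpn6, encoding SHP-1, at 100, 96.1 and 104 against 233, 252 and 277 FPKM. Cd8a and Cd8b1, the coreceptor chains, were among the lower of the CD8 T cell markers, 129 to 142 against 212 to 244 FPKM for Cd8a. For cytokine receptors and JAK-STAT genes 7 of 42 were higher and 13 lower (47.6% called), and 11 were called without let-7Tg replicate 2. Il7r, the survival receptor of memory cells, was at 10.5, 11.8 and 3.93 against 70.7, 65.8 and 24.7 FPKM (adjusted p = 0.00558), and Il6st at 13.1, 6.99 and 11.8 against 31.4, 26.9 and 29.5 FPKM. Il1rl1, the IL-33 receptor, was at 2.26, 2.94 and 2.88 against 0.175, 0.0605 and 0.0866 FPKM (adjusted p = 1.32e-04).

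Genes named as let-7 targets in the wider literature were higher more often than lower. Of 47 tested members 21 were higher and 3 lower (median 0.48), and leaving out 1 sample gave 22 to 26 calls. Hmga1, a chromatin protein, was at 287, 302 and 332 FPKM in lin28Tg and 88.7, 77 and 102 FPKM in let-7Tg CTLs (3.71-fold, adjusted p = 1.17e-04). Gng5 was at 96.4, 90.9 and 88.7 against 33.3, 30.6 and 40.4 FPKM, and Igf2bp3, an RNA-binding protein, at 9.67, 9.57 and 9.1 against 2.3, 3.28 and 1.96 FPKM (adjusted p = 0.00244). The 3 lower members were Igf1r, Fas and Ccr7, of which Igf1r lost its call without let-7Tg replicate 1 (adjusted p = 0.0504). Each of these 3 holds 1 8mer in the 3′ UTR used here. Of the higher members named in this paragraph, Igf2bp3 holds 1 8mer and Gng5 only a 7mer-m8. Hmga1 has no site in a 3′ UTR of 111 bases. The list was written with results of these data known.

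**Figure D3:**
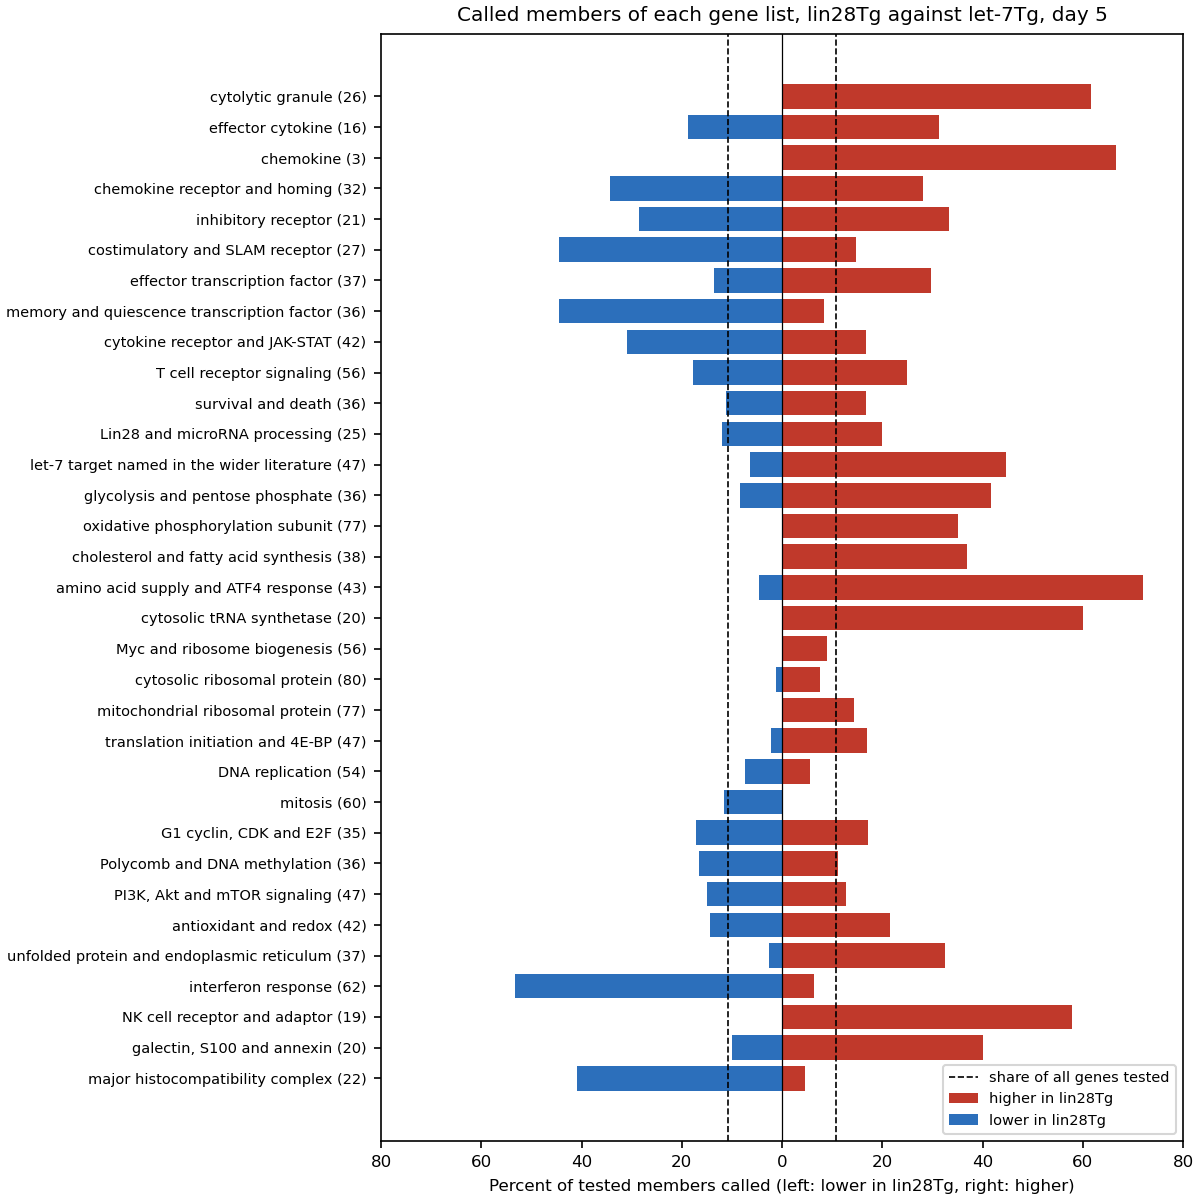
For each gene list (y axis, with the number of tested members in brackets) the bars give the percent of tested members called higher (to the right) or lower (to the left) in lin28Tg CTLs (x axis), and over all tested genes 10.8% were higher and 10.7% lower. Of the granule genes 61.5% were called, all of them higher.

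Most tested genes that supply amino acids and charge tRNAs were higher in lin28Tg CTLs. In the list of amino acid supply and ATF4 response genes 31 of 43 were higher and 2 lower (median 0.86), with 22 to 33 called when 1 sample was left out. Asns, asparagine synthetase, was at 189, 162 and 141 FPKM in lin28Tg and at 51.2, 41.9 and 33.8 FPKM in let-7Tg CTLs (4.17-fold, adjusted p = 1.54e-04). Gpt2 was at 23.6, 21.8 and 21.1 against 7.24, 5.25 and 6.07 FPKM, and Nupr1, a stress factor, at 8.57, 5.35 and 5.74 against 0.639, 0.402 and 0.403 FPKM. Of 20 cytosolic tRNA synthetase genes 12 were higher and 0 lower (median 0.64). Gars was at 177, 179 and 176 against 81.6, 77.6 and 101 FPKM, and Cars and Sars were 1.85-fold and 1.67-fold higher. In the unfolded protein list 12 of 37 were higher and 1 lower, with 6 to 16 called when 1 sample was left out (6 without let-7Tg replicate 2, 7 without let-7Tg replicate 1 and 8 without lin28Tg replicate 2) and 20 with the replicate block. Ero1l, which forms disulfides in the ER, was 3.46-fold higher (adjusted p = 0.00103), and the lower gene was Xbp1 (adjusted p = 0.0185), whose call was lost without lin28Tg replicate 1 or 3 (0.0529 and 0.0631) or let-7Tg replicate 2 or 3 (0.0709 and 0.059).

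Glycolysis genes were higher in 15 of 36 and lower in 3. Without let-7Tg replicate 2 the count was 10 and without lin28Tg replicate 3 it was 11. Ldha and Eno1 were at 2966 to 3197 and 3830 to 4105 FPKM in lin28Tg and 2077 to 2327 and 2642 to 2897 FPKM in let-7Tg CTLs, 1.49-fold and 1.54-fold higher. Hk2, hexokinase, was at 65.6, 98.8 and 98.2 against 44.2, 35.3 and 46.7 FPKM. Ldhb was lower, at 2.51, 3.29 and 2.37 against 13.1, 15.2 and 10.2 FPKM (adjusted p = 3.19e-04). Nuclear genes of oxidative phosphorylation were higher in 27 of 77 and lower in 0, by a small median of 0.17, and the count fell to 11 without let-7Tg replicate 2, 12 without let-7Tg replicate 1 or lin28Tg replicate 3 and 14 without lin28Tg replicate 2. Cholesterol and fatty acid synthesis genes were higher in 14 of 38 and lower in 0, 9 without let-7Tg replicate 2 and 22 with the replicate block. Scd1 was at 78.8, 51 and 65.5 against 21.9, 16.9 and 16.2 FPKM, and Hmgcs1 at 317, 387 and 418 against 161, 156 and 177 FPKM.

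Of 80 cytosolic ribosomal protein genes 6 were higher and 1 lower (8.75% called against 21.6% of all genes, median 0.08), and without scaling 2 were higher and 2 lower. The mitochondrial ribosome list had 11 of 77 higher (14.3%), the Myc and ribosome biogenesis list 5 of 56 (8.93%), and the translation initiation list 8 of 47 higher and 1 lower (19.1%). With the replicate block these 4 lists had 11, 31, 9 and 24 calls. Single samples decided them too, with 3 to 11, 3 to 21, 3 to 8 and 3 to 14 calls when 1 was left out, each lowest count coming without a lin28Tg replicate 2 or 3 or without let-7Tg replicate 1 or 2. The highest counts of the last 3 lists came without let-7Tg replicate 3, and that of the first without WT replicate 1. Mycn, a Myc family factor, was at 14.1, 51.7 and 42.5 against 2.35, 3.43 and 1.76 FPKM (11.7-fold, adjusted p = 0.00315), whereas Myc was not called (104, 112 and 105 against 162, 209 and 103 FPKM, adjusted p = 0.316). Eif4ebp1, an inhibitor of translation, was 2.53-fold higher.

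Cell cycle lists gave counts that moved with single samples and settings, beside 21.6% called over all genes. Of 54 DNA replication genes 3 were higher and 4 lower (13% called). That count was 13 with the replicate block, 1 without let-7Tg replicate 1 or 2, 2 without lin28Tg replicate 3 and 3 without lin28Tg replicate 2. Mitosis genes were lower in 7 of 60 and higher in 0 (11.7% called, median -0.23). Without lin28Tg replicate 1 that count was 19, as with the replicate block, without lin28Tg replicate 2 or 3 or let-7Tg replicate 1 or 2 it was 4, and without scaling 13. Stmn1, a tubulin regulator, was at 432, 286 and 357 FPKM in lin28Tg and at 782, 879 and 773 FPKM in let-7Tg CTLs (2.12-fold lower, adjusted p = 6.68e-04). In the list of G1 cyclins, CDKs and E2F factors 6 of 35 were higher and 6 lower (20 with the replicate block, 6 without lin28Tg replicate 3 or let-7Tg replicate 1, 7 without lin28Tg replicate 2). Cdkn2c, an inhibitor of CDK4 and CDK6, was at 38.4, 27.5 and 23.6 against 66.9, 70.7 and 56.3 FPKM. E2f5, a repressor of the E2F family, was at 6.94, 8.76 and 8.11 against 2.16, 2.3 and 3.73 FPKM (2.85-fold higher).

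The remaining lists held genes of both directions, beside 21.6% called over all genes. Polycomb and DNA methylation (27.8% called), PI3K, Akt and mTOR signaling (27.7%) and survival and death genes (27.8%) lay near that share. It was 35.7% for antioxidant genes, 50% for galectin, S100 and annexin genes and 32% for the Lin28 and miRNA processing list. Polycomb and DNA methylation genes were higher in 4 of 36 and lower in 6, with Jarid2, a Polycomb subunit, at 74.5, 68.8 and 77.6 against 35.9, 30.6 and 27.4 FPKM (2.52-fold, adjusted p = 1.68e-04) and Tet1 lower. PI3K, Akt and mTOR signaling genes were higher in 6 and lower in 7 of 47 (24 called with the replicate block), antioxidant genes higher in 9 and lower in 6 of 42 (24 with the block, 9 without lin28Tg replicate 2 or 3), and survival and death genes higher in 6 and lower in 4 of 36 (6 called without let-7Tg replicate 1). Bcl2 was lower, at 90, 91.9 and 94.3 against 157, 162 and 170 FPKM (adjusted p = 0.00216), and Pmaip1, encoding NOXA, was 2.11-fold higher. Galectin, S100 and annexin genes were higher in 8 and lower in 2 of 20. Lgals3, galectin-3, was at 456, 629 and 479 against 69.8, 55.3 and 74.1 FPKM, and S100a4 at 414, 722 and 535 against 101, 113 and 68.1 FPKM. In the list of Lin28 and miRNA processing 5 of 25 were higher and 3 lower (4 called without lin28Tg replicate 2 or 3, and 5 without let-7Tg replicate 1 or 2). Dicer1, which cuts precursors, was 1.68-fold and Drosha 1.41-fold higher, and Dgcr8 1.64-fold lower. The call of Dicer1 was lost without lin28Tg replicate 2 or 3 (adjusted p = 0.0583 and 0.0665) or let-7Tg replicate 1 or 2 (0.0699 and 0.0692).

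Called interferon response genes were mostly lower. Of 62 tested members 33 were called lower, 4 higher and the others in neither direction (median -0.61), with 28 to 44 called when 1 sample was left out. Ifi27l2a was at 12.3, 7.38 and 8.08 FPKM in lin28Tg and 221, 225 and 190 FPKM in let-7Tg CTLs (20.6-fold lower, adjusted p = 1.54e-04). Slfn1 was at 3.93, 4.38 and 5.05 against 25.1, 30.3 and 23.9 FPKM. Of the 4 higher genes 3 belong to 1 family of antiviral membrane proteins. Ifitm1 was at 1442, 2395 and 1801 FPKM against 23.4, 16.3 and 11.1 FPKM (119-fold, adjusted p = 1.32e-04), Ifitm2 at 898, 1183 and 1017 against 66.9, 83.4 and 32.3 FPKM and Ifitm3 at 74.2, 219 and 113 against 4.74, 4.95 and 2.39 FPKM. The fourth, Mx1 (adjusted p = 0.0276), lost its call without lin28Tg replicate 2 or 3 (0.0897 and 0.0625) or let-7Tg replicate 1 or 3 (0.0763 and 0.0701).

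MHC genes were lower in 9 of 22 and higher in 1, 6 called without let-7Tg replicate 2. H2-K1, a class I heavy chain, was at 1512, 1347 and 1473 against 2292, 2156 and 2021 FPKM (1.38-fold lower). H2-Ob and H2-DMa, chaperones of class II loading, were 10.6-fold and 3.6-fold lower. Markers of B cells did not share 1 direction. Summed over 8 genes they were at 32 to 143 FPKM in lin28Tg and 178 to 248 FPKM in let-7Tg CTLs. Most of this was Ighm, which had 134, 28.7 and 89.7 against 242, 205 and 173 FPKM (adjusted p = 0.0501). Of the 3 markers tested Cd79a was called lower (adjusted p = 0.0312), at 0.214, 0.293 and 0.433 against 1.05, 1.33 and 0.694 FPKM. Cd79b was at 7.4, 2.93 and 4.74 against 4.55, 3.6 and 3.51 FPKM and was not called (log2 fold change 0.35, adjusted p = 0.379). Cd22, not tested, was at 1.17, 0.0749 and 0.237 against 0.0269, 0.0697 and 0.133 FPKM, and Ms4a1 and Blnk had no read in the 6 samples. Myeloid markers reached 8.8 to 11.7 against 3.47 to 6.3 FPKM, with no read for C1qa, C1qb, C1qc and Fcgr1. The part of these cells in the class II values was not tested.

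Outside the lists, the genes with the smallest adjusted p or the largest fold change lay in both directions. Dapl1 was at 0.084, 0.154 and 0.146 FPKM in lin28Tg CTLs, from 1 to 2 reads, and 47.3, 35.9 and 48.4 FPKM in let-7Tg CTLs, from 502 to 591 reads (adjusted p = 2.42e-05). Igfbp4 was at 1.05, 5.14 and 0.686 against 71.2, 55.8 and 35.9 FPKM (22.7-fold lower), and Nsg2 at 2.02, 2.23 and 1.59 against 37.9, 29.1 and 44.8 FPKM. Ass1, argininosuccinate synthase, was lower by 3.6-fold. Litaf and Atp8b4, a phospholipid flippase, were higher by 4.37-fold and 3.34-fold. Their values did not overlap, which was a condition of their choice.

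The WT CTLs were cultured in the same way and show where each group lay. Of the 2812 called genes 554 also passed the test of lin28Tg against WT and 118 that of let-7Tg against WT. Of these 32 passed both, and 2172 of the called genes passed neither. The WT mean lay between the lin28Tg and let-7Tg means in 2636 of the called genes (93.7%). Calls favour genes whose lin28Tg and let-7Tg means lie far apart, which leaves more room for WT between them. The share over all tested genes was not computed. The genes below were picked as examples after their values were seen, and most were called in a contrast with WT. WT values are means ± SD of 3 samples, and both contrasts with WT share these samples, as they share the groups compared here. Prf1 was at 21.5 ± 6.05 FPKM and Cd247 at 81.7 ± 2.35 FPKM in WT CTLs, where the contrast with lin28Tg was called (adjusted p = 7.28e-04 and 1.19e-05) and that with let-7Tg was not (0.355 and 0.473). Tcf7 was at 150 ± 29.6 FPKM in WT CTLs, with adjusted p values of 9.74e-04 for lin28Tg and 0.749 for let-7Tg. For Asns, at 108 ± 16.3 FPKM, the let-7Tg contrast was called (adjusted p = 0.0161) and the lin28Tg contrast was not (0.0541). Hmga1 (152 ± 14.8 FPKM), Litaf (39.9 ± 5.38 FPKM) and Ifitm1 (345 ± 198 FPKM) were called in both, higher than WT in lin28Tg and lower than WT in let-7Tg CTLs. Ccr2, at 36.6 ± 24.4 FPKM with a wide spread, was called in neither (0.0832 and 0.0947). A call in one contrast and not in the other does not show that the sizes differ.

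The same contrast was made at the earlier stages, on other samples. Naive cells had 5870 of 13277 genes called (44.2%) and cells activated for 12 h 3775 of 12239 (30.8%). Cells of the 12 h stage were stimulated with anti-CD3 and anti-CD28 antibodies, so stage and stimulus differ together. Of the 2598 genes called on day 5 and tested in naive cells, 1119 were called in the same direction there (43.1% of the day 5 genes and 21.6% of the naive calls) and 286 in the opposite one (11% and 5.51%). At 12 h 728 of 2478 were called in the same direction (29.4% and 20.2%) and 225 in the opposite one (9.08% and 6.26%). A test of the difference itself called 3979 of 14453 genes between day 5 and naive cells (27.5%) and 3014 between day 5 and 12 h (20.9%). The lists are set side by side, without a test of their difference. In naive cells 49 of 54 DNA replication genes were called higher in lin28Tg (median log2 fold change 1.08) and at 12 h 50 (1.00), against 3 on day 5. Mitosis genes had medians of 2.41 and 2.11 at the earlier stages and -0.23 on day 5. Interferon genes had 7 higher and 1 lower in naive cells, 22 and 7 at 12 h, and 4 and 33 on day 5.

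**Figure D4:**
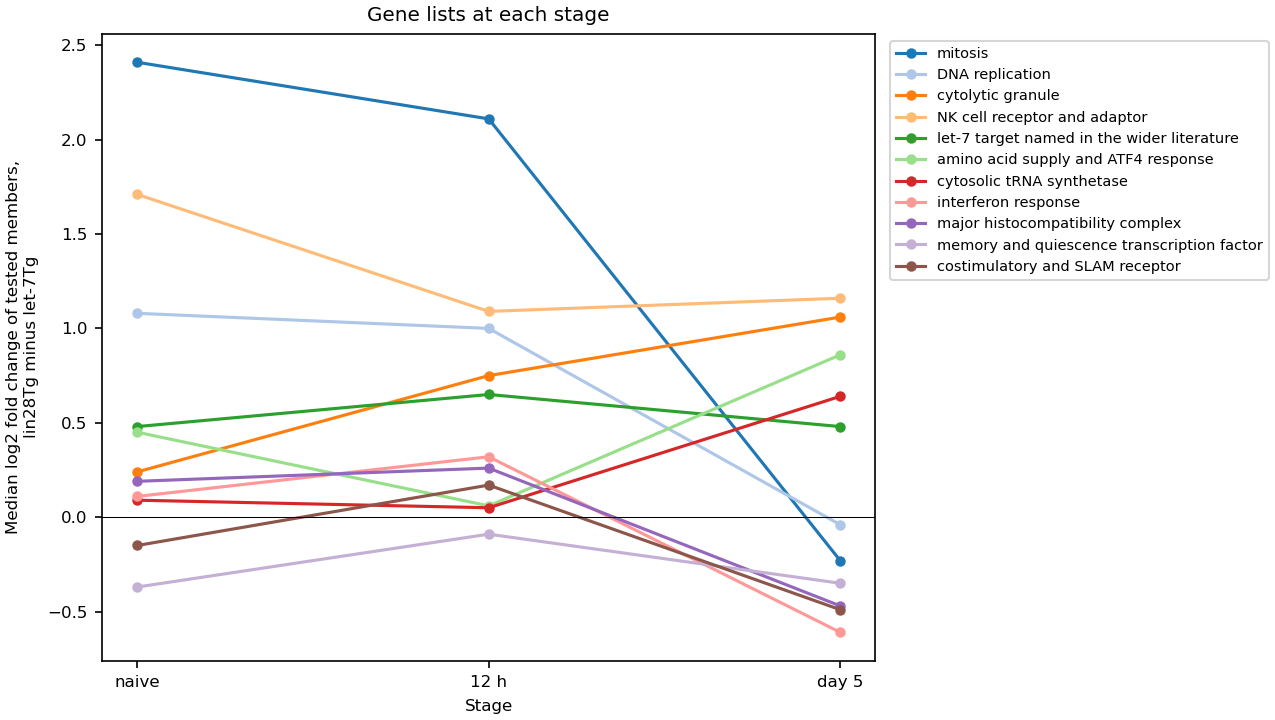
Median log2 fold change of lin28Tg against let-7Tg samples (y axis) for gene lists at the 3 stages (x axis), with 1 line for each list and points for the stages. The mitosis line falls from 2.41 in naive cells to -0.23 on day 5.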

How the data were processed

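RNA was sequenced from day 5 CTLs, 3 biological replicates per genotype. According to the submitters' processing notes the reads were aligned with TopHat2 2.0.9 and Bowtie2 2.0.6 to GRCm38 (mm10) and counted with HTSeq 0.6.1, and the annotation release is not given in the sources used here. The authors deposited FPKM per gene and sample, made from counts divided by gene length and library total. Columns of group mean counts, fold changes, p-values and clusters are the authors' own comparisons and were not used.

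All 462839 values above 0 were whole reads (100.0%), which were recovered only for filtering, counts of low genes and the limma-voom alternative. A gene was kept with 10 reads or more, rescaled to the median depth, in 3 samples and 15 reads over all 9. FPKM were scaled by trimmed means of log ratios (30% of ratios and 5% of levels trimmed), 0.5 was added, and log2 values were fitted with limma 3.58.1 (R 4.3.3) with a trend, over the 9 day 5 samples, WT included, on 6 residual degrees of freedom. WT samples share the estimate of spread, and they also enter the filter on reads and the scaling. With only the 6 samples compared, 12797 genes were tested and 2907 called. P-values were adjusted by Benjamini-Hochberg over all 13030 genes, with a threshold of 0.05. Stage differences were tested as interactions in all 27 samples. Scripts were tested on simulated data. Other steps used Python 3.11.15, numpy 2.4.6, pandas 2.3.3 and matplotlib 3.10.9.

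Members and lists were chosen with earlier results of these data known. Named genes were Lin28b and Col1a1, the top 8 called genes of each direction by adjusted p and by fold change (non-overlapping, mean of at least 5 FPKM), up to 4 called members per list and direction, the anchor genes called or not, the top 8 higher genes with an 8mer, and, for each earlier stage, the 3 day 5 genes with the smallest adjusted p of the stage difference and the 3 such genes called with opposite signs. Some of these genes are not reported here. Klrg1, an anchor, did not pass the filter. Genes of the 7 with 2 or more 8mers and markers were named after their values were seen. Of 35275 gene IDs 34490 were in GENCODE M21, which served for positions and 3′ UTRs, and it is not the authors' annotation. The labels do not say that samples of the same replicate number were made together, and the main fit did not pair them. Deviations from the group means correlated at 0.51, 0.25 and 0.45 between lin28Tg and let-7Tg samples of the same number. Between different numbers they correlated at -0.39 to 0.01. Deviations cancel out within a group of 3, so positive values for the same number push the others down. Alternatives were other pseudocounts, scalings, filters, 6 samples only, the replicate block, limma-voom and leaving out each sample.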

Additional observations from a re-analysis of the deposited data

Results flagged for a closer look

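By the test of the interaction 3979 genes had a day 5 difference between lin28Tg and let-7Tg cells that departed from that in naive cells. For 12 h the count was 3014. The 8 values below belong to genes called on day 5 and picked for the smallest adjusted p of that test. Prf1 (for naive cells) and Jade2 (for 12 h) were picked only from genes called with opposite signs on day 5 and at that earlier stage. Relative to naive cells the log2 difference changed by -3.46 for E2f2, by -4.20 for Stmn1, by -4.92 for Top2a and by 5.05 for Prf1. Relative to 12 h it changed by -3.60 for E2f2, by -1.83 for Jade2, by 2.04 for Jarid2 and by -5.40 for Ccr7. E2f2, a factor of the cell cycle, was at 24.1, 28.1 and 34.1 FPKM in naive lin28Tg cells and 2.8, 3.88 and 3.41 FPKM in naive let-7Tg cells, and on day 5 at 60, 36.3 and 44.8 against 86.4, 71.1 and 71.7 FPKM. The day 5 calls of E2f2 and Top2a were lost in 3 and 4 of the fits without 1 sample, with adjusted p values up to 0.0947 for E2f2 (let-7Tg replicate 1 left out) and 0.0702 for Top2a (let-7Tg replicate 2 left out). Prf1 was at 33.8, 36.9 and 29.9 FPKM in naive lin28Tg cells and at 61.4, 65.3 and 55 FPKM in naive let-7Tg cells. This order is opposite to day 5, as its choice required. Ccr7 was at 357, 386 and 456 FPKM in lin28Tg and 234, 138 and 113 FPKM in let-7Tg cells at 12 h, again opposite to day 5. Stimulus, culture time and stage change together between the stages, and their parts were not tested.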

How the results depend on the processing

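The replicate block raised the count of called genes from 2812 to 4732 (2423 higher and 2309 lower). Leaving out 1 sample gave 1658 to 3195, with 1658 without let-7Tg replicate 1, 1750 without let-7Tg replicate 2, 1795 without lin28Tg replicate 3 and 1856 without lin28Tg replicate 2. Other settings gave 2470 to 3079. Without scaling, 35% of the calls were higher, and the median of all genes shifted by -0.10 on the log2 scale. The medians of genes with a let-7 site then fell to -0.02 (any site) and 0.02 (8mer), from 0.08 and 0.13. The counts of stage differences stayed within 1.5 times, from 3152 to 4094 (naive) and from 2497 to 3220 (12 h) without 1 sample, and 4831 and 3933 with the replicate block. Of the 246 named genes tested 238 were called. Over the other settings 28 of 2202 values lost the call, in 20 genes, and 4 gained it, and over the fits without 1 sample 145 of 2202 lost it, in 39 genes. No value of the 238 called genes changed sign, and changes of sign in the other named genes were not counted. With the replicate block Lag3 and Tbx21 gained a call, and 11 of the list counts given in the report moved by over 1.5 times. With 3 samples a group, small differences and genes of few reads are the least secure.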
